A study of Mus musculus with 16 samples.

Results

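Adrenal glands of XY and XX mice of the control genotype were compared across autosomal genes. The 8 glands came from 4 male and 4 female mice, all 4 weeks old and of mixed genetic background, and each library is 1 individual animal. The labels give the genotype of these mice only as control and do not say which alleles they carry. The other 8 libraries of the study are male and female mice with Rspo1 gain-of-function (Rspo1 GOF), 4 of each sex, at the same age and on the same kind of background. The labels do not say which promoter drives the gain of function or in which cells. Its product, R-spondin 1, is secreted and raises the response of cells to WNT ligands, and the GOF mice serve here only as a second set of males and females. The study asked how sex shapes adrenal gene expression with and without this change. Of 54838 genes in the count table, 18214 had enough reads to be tested and 17609 of these lie on the 19 autosomes; these 17609 genes are the subject of what follows.

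The adrenal gland consists of a steroid-producing cortex around a catecholamine-producing medulla. In the cortex, the outer zona glomerulosa makes aldosterone and the zona fasciculata makes corticosterone, both from cholesterol. Mice also have an X-zone, a layer of cells next to the medulla that derives from the fetal cortex, is lost in males around puberty and persists in females until a first pregnancy. The adult cortex is renewed from progenitors in the capsule and the outer cortex under WNT and hedgehog signals, and this renewal is known to differ between male and female mice.

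Library totals ran from 32809755 to 38102532 counts and did not differ between the sexes (34876914 ± 2265191 in females and 34865516 ± 1590278 in males, SD, n = 4 each; 2-sided exact permutation p = 1). Xist, the transcript of the inactive X chromosome, had 10846 to 22704 counts in females but 1 to 4 in males, and the Y-linked Ddx3y had 4650 to 5528 counts in males but 0 in females, so that each library lay on the side of its labelled sex. The mitochondrial share of counts was 3.97% ± 0.400 in females and 4.58% ± 0.525 in males (exact permutation p = 0.114). Several libraries stood apart. Male control 2 carried liver transcripts: 16 liver genes summed to 10730 CPM (counts per 1000000 counts, scaled between libraries) there, against 366 to 1049 CPM in the other males and 185 to 277 CPM in the females. Of those 16 genes, 10 reached 1 CPM in the median control library, Cyp2e1 and Hp foremost, so the list is not specific to liver tissue at that level. Male control 2 also had 71.7 CPM over 6 skeletal muscle genes, with 5.07 CPM or less in the other 7 libraries. Female control 1 carried kidney tubule transcripts, with 1235 CPM over 11 genes, and female control 3 carried 211 CPM. The other 6 libraries had 0.839 to 3.75 CPM. Male control 1 had the lowest summed level of 16 cell cycle genes, 179.7 CPM against 288 to 358 CPM in the other males. Over 12 such library properties, no difference between the sexes passed the correction; the smallest exact permutation p that 4 against 4 libraries allow, 0.0286, was reached by the liver, adipocyte, erythroid and macrophage sums and became 0.0857 after Benjamini-Hochberg adjustment. The numbers in the sample titles fall into ranges: female control 1 and male controls 1 to 3 share the first, female controls 2 to 4 the next, and male control 4 stands in a later one. The labels do not call these ranges a batch, and sex and number range are largely confounded in these 8 mice.

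**Figure D1:**
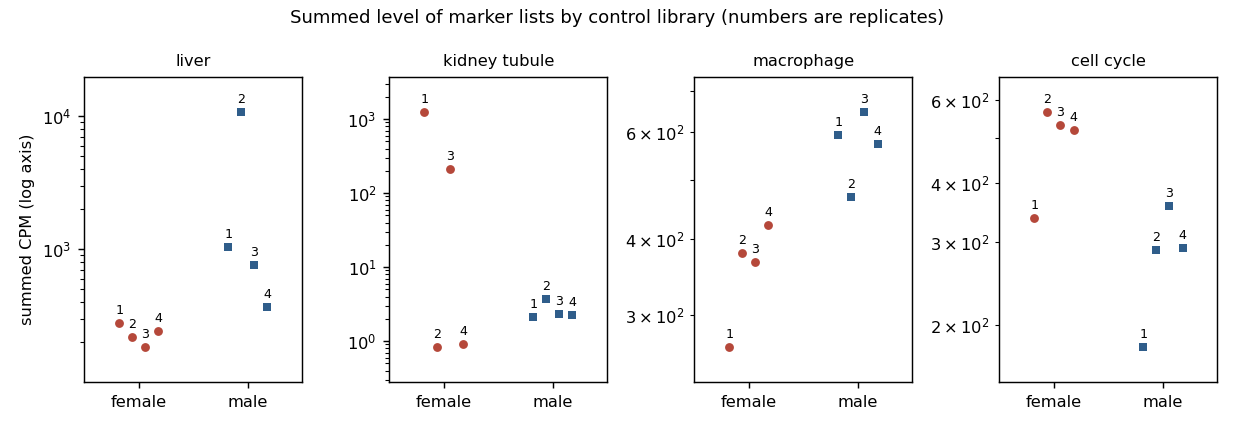
Summed CPM (log axis, its own scale in each panel) of the liver, kidney tubule, macrophage and cell cycle gene lists in each control library, with the replicate number above each point and circles for females and squares for males. Male control 2 stands at 10730 CPM for liver genes and female control 1 at 1235 CPM for kidney genes, while all 4 males lie above all 4 females for macrophage genes.

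The male and female glands were first compared over all autosomal genes. At an adjusted p under 0.05 in edgeR's quasi-likelihood test (Benjamini-Hochberg adjustment over all 18214 tested genes), 4082 of 17609 autosomal genes, 23.2%, were called. Of these, 2359 (13.4% of the genes tested) were higher in males and 1723 (9.78%) were lower. The share of calls that were higher in males was 57.8%, and 46.5% to 61% under the other settings. The typical difference was modest: the median absolute log2 fold change of the called genes was 0.78 for those higher and 0.60 for those lower in males. Few differences were extreme, but more of these lay on the female side, with 62 genes at least 4 log2 units higher in males and 82 at least 4 units lower. The 4 male and 4 female values did not overlap in 4428 genes, 25.1% of those tested. The calls were spread over all 19 autosomes, from 19.3% of the genes tested on chromosome 17 to 26.3% on chromosome 19.

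Part of these calls rested on the libraries named above. Without female control 1 and male control 2, 2951 of 17768 autosomal genes tested (16.6%) were called. Of the 2359 genes higher in males 2355 were tested there and 1387 kept their call; the 972 without it include those not tested, and 9 changed sign. Of the 1723 genes lower in males 1717 were tested and 1298 kept it; the 425 without it again include those not tested, and 0 changed sign. Leaving out female control 3 lowered the calls to 2533, with 1316 higher in males. With the range of title numbers added to the model, 1243 genes were called, and 1176 of the 4082 calls were kept in the same direction. Female control 1 is the only female control in a range with male controls. The fit with the number range therefore rests largely on that library and on the GOF libraries. The genes named below as highest, lowest or most abundant had to pass with and without female control 1 and male control 2 and to have no overlap between the sexes. All 33 of them kept sign and call whenever 1 of the 8 control libraries was left out, and 29 of the 33 kept the call with the number range in the model; Cyp4f15, Crym, Cyp2e1 and Adh1 did not, with adjusted p of 0.198, 0.0577, 0.0672 and 0.0734 and log2 fold changes of 2.29, 2.52, 2.36 and -2.0. Hephl1 lost its call with voom and quality weights (-7.76, adjusted p = 0.0792), and DESeq2 gave no adjusted p for Adh1. The naming rule used these same 8 libraries, so the leave-one-out result for the 33 genes is not separate support.

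The lowest genes in males were led by markers of the X-zone. Akr1c18 (ENSMUSG00000021214, chromosome 13, 4132615 to 4150654, minus strand, GRCm38), the 20-alpha-hydroxysteroid dehydrogenase that inactivates progesterone, stood at 4553, 6813, 5830 and 4453 CPM in female controls 1 to 4. In male controls 1 to 4 it stood at 0, 1.76, 0.742 and 0.245 CPM. Every female library thus lay far above every male library, and the log2 fold change was -12.94 ± 0.689 (SE), with an adjusted p of 3.1e-08. Pik3c2g (ENSMUSG00000030228, chromosome 6, 139587221 to 139969284, plus strand), a class II phosphoinositide 3-kinase also used as an X-zone marker, had 550.4, 545, 568 and 457 CPM in the females and 0, 1.49, 0.185 and 0.272 CPM in the males. Its log2 fold change was -10.06 ± 0.672 (adjusted p = 3.14e-07). Male control 2 was the highest male for Akr1c18 and Pik3c2g, and without it their log2 fold changes were -14.01 and -11.69. The third gene of the X-zone list, Thrb, a thyroid hormone receptor, had 161 to 217 CPM in females and 31.3 to 37.9 CPM in males, so the male glands kept a level of Thrb while the other two were near 0. In whole glands, fewer cells of a type and less RNA per cell cannot be told apart.

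The group also held a steroid reductase and a cytochrome P450. Akr1d1 (chromosome 6, 37530173 to 37568815, plus strand), the 5-beta-reductase that reduces steroids with a 4-ene structure, had 1472, 2483, 2018 and 1729 CPM in the females. In the males it had 0.0615, 17.2, 0.155 and 0 CPM. The 17.2 CPM belong to male control 2, the library with liver transcripts, and Akr1d1 is known as a liver enzyme. Its log2 fold change was -8.79 ± 1.36 with all libraries and -14.80 without female control 1 and male control 2, so that 1 library set most of the male mean. The other males held 2, 5 and 0 counts of Akr1d1, so the size of the second value is uncertain. Cyp2f2, a cytochrome P450 best known from airway club cells, had 643, 1325, 910.1 and 613 CPM in the females and 2.98, 16.7, 1.17 and 1.44 CPM in the males, again highest in male control 2. Its log2 fold change was -7.29 ± 1.13 and became -8.99 without female control 1 and male control 2. The groups stayed far apart in both genes.

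Secreted and membrane proteins followed. Spp1, which encodes the matrix protein osteopontin, had 340.2, 264, 297 and 248 CPM in the females and 3.82, 2.11, 1.79 and 2.39 CPM in the males (log2 fold change -6.83 ± 0.632). Cst8, a cystatin-family protein, had 49.4 to 94.8 CPM in females and 0.804 to 2.28 CPM in males, with a log2 fold change of -5.70. Folr1, the folate receptor alpha, had 12.7 to 40.2 CPM in females and 0.247 to 0.435 CPM in males (log2 fold change -6.09). Folr1 was highest in female control 1, which carried kidney transcripts, and the log2 fold change without that library was -5.71. Elfn1, a leucine-rich repeat membrane protein, had 85.9, 319, 328 and 153 CPM in the females and 1.64 to 7.17 CPM in the males (log2 fold change -5.83).

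In this group 4 genes were at or near the detection limit in males, which was 3 counts per library. Gm7298 had 8.19 to 23.8 CPM in the females and 0 counts in all 4 males, so it was at least 201-fold lower in males against a floor of 3 counts per library. Gpc5, a cell-surface heparan sulfate proteoglycan, had 1511 counts summed over the females and 2 over the males, a ratio of 755 with a 95% interval of 209 to 6242. Lactbl1 had 1078 and 3 counts, a ratio of 359 (123 to 1745). Hephl1, a ferroxidase related to hephaestin, had 2406 and 5 counts, a ratio of 481 (206 to 1483). These intervals are conditional exact binomial intervals of summed counts scaled to library totals, and they cover counting error only. Hephl1 varied most between females, at 0.835 CPM in female control 1 and 13.7 to 33.3 CPM in the other 3.

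**Figure D2:**
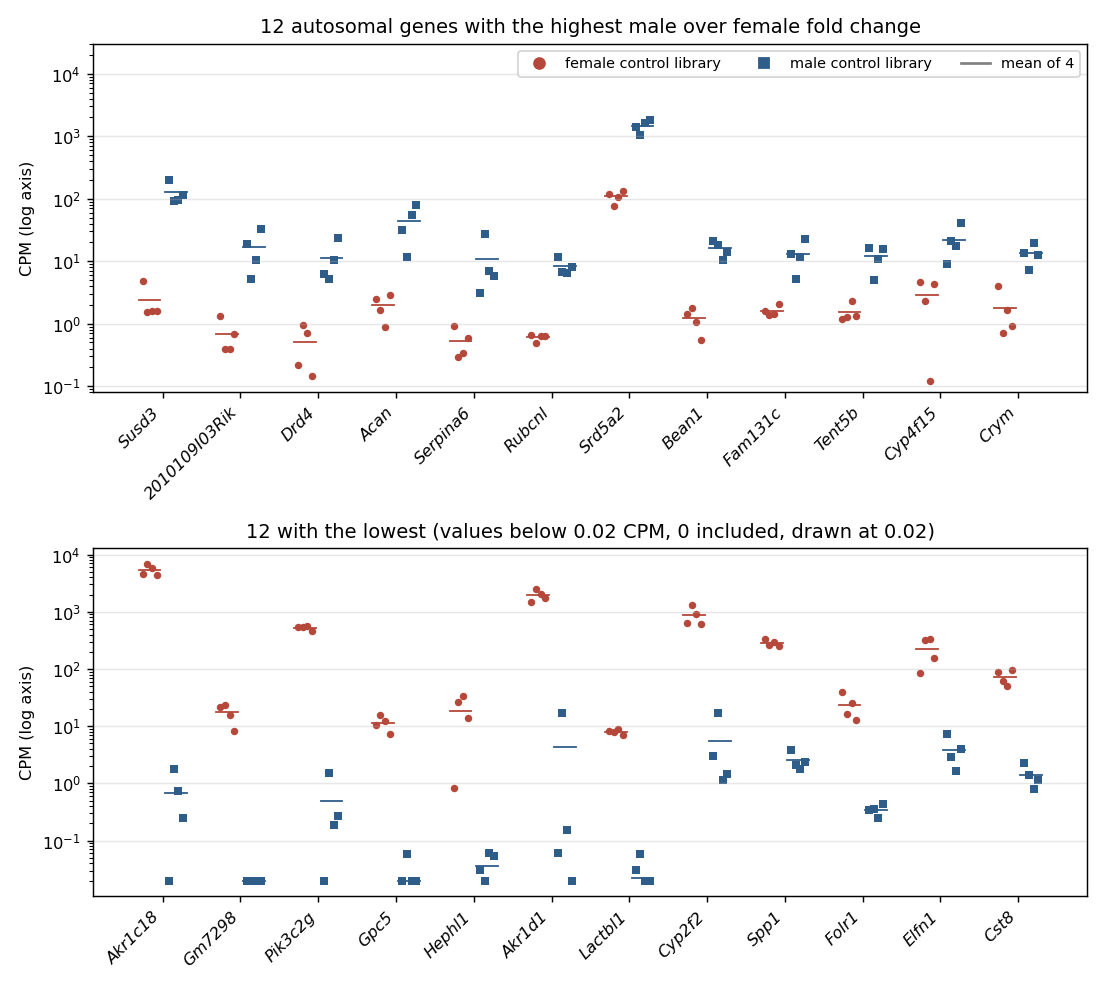
CPM (log axis) of the 12 autosomal genes with the highest and the 12 with the lowest male over female fold change among those that met the naming rule, with 1 point per control library (circles female, squares male) and a line at the mean of 4; values below 0.02 CPM are drawn at 0.02. The sexes do not overlap in any of the 24 genes, a condition of the rule, and male control 2 is the highest male point for Akr1d1 and Cyp2f2.

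The genes highest in males included a steroid 5-alpha-reductase and genes of signalling and matrix. Susd3 (ENSMUSG00000021384, chromosome 13, 49230690 to 49248706, minus strand), a small membrane protein with a sushi domain, had 202, 90.8, 96.7 and 116 CPM in male controls 1 to 4. In female controls 1 to 4 it had 4.77, 1.55, 1.60 and 1.59 CPM. Its log2 fold change was 5.72 ± 0.418 (adjusted p = 6.25e-07), and female control 1 lay above the other 3 females. Srd5a2 (ENSMUSG00000038541, chromosome 17, 74016955 to 74047916, minus strand), the type 2 5-alpha-reductase that converts testosterone to dihydrotestosterone, had 1405, 1043, 1624 and 1801 CPM in the males and 119, 76.7, 108 and 132 CPM in the females. Its log2 fold change was 3.75 ± 0.252 (adjusted p = 2.56e-07). Srd5a2 was the only gene to enter both as one of the 12 highest and as one of the 6 most abundant in males. On the female side, Akr1c18 and Akr1d1 did so.

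Drd4, the dopamine D4 receptor, had 6.15, 5.27, 10.4 and 23.2 CPM in the males and 0.147 to 0.968 CPM in the females (log2 fold change 4.49 ± 0.626). Acan, which encodes the cartilage proteoglycan aggrecan, had 11.5 to 78.8 CPM in males and 0.893 to 2.91 CPM in females (4.47 ± 0.733). Both were highest in male control 4. Rubcnl, a regulator of autophagy related to rubicon, had the smallest spread of these genes, with 6.58 to 11.7 CPM in males and 0.484 to 0.647 CPM in females (3.76 ± 0.231). Serpina6, the corticosteroid-binding globulin of plasma, had 3.08, 27.3, 6.89 and 5.82 CPM in the males and 0.291 to 0.916 CPM in the females (4.32 ± 0.594). It is made mainly in liver and was highest in male control 2. The log2 fold change without female control 1 and male control 2 was 3.68 with an adjusted p of 1.05e-05. Crym, a thyroid hormone-binding crystallin, had 7.29 to 19.8 CPM in males and 0.710 to 3.96 CPM in females. The remaining 5 genes, 2010109I03Rik, Bean1, Fam131c, Tent5b and Cyp4f15, had log2 fold changes of 4.58, 3.73, 3.04, 2.98 and 2.93.

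Among the most abundant genes that differed by at least 1 log2 unit, those higher in males were Glul, Srd5a2, Prss35, Acsbg1, St3gal5 and Cyp2e1. St3gal5, the sialyltransferase that makes the ganglioside GM3, was the least variable of them, at 582.3, 475, 567 and 658 CPM in the males and 222, 203, 191 and 192 CPM in the females (log2 fold change 1.5 ± 0.103, adjusted p = 2.78e-07). Glul, glutamine synthetase, had 1283 to 2027 CPM in males and 467 to 839 CPM in females, a log2 fold change of 1.47 ± 0.232. Acsbg1, an acyl-CoA synthetase of very-long-chain fatty acids, had 678 to 969.5 CPM against 137 to 302 CPM (1.72 ± 0.213), and Prss35, a serine protease relative, 578.6 to 1202 CPM against 90.4 to 201 CPM (2.70 ± 0.277). Cyp2e1 had 748, 761, 544 and 179.9 CPM in the males and 82.7 to 154 CPM in the females. Male control 2 was not separate from male control 1 in Cyp2e1, and the log2 fold change was 2.22 with and 2.02 without female control 1 and male control 2.

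Those higher in females were C3, Akr1c18, Adh1, Akr1cl, Akr1d1 and Apoc1. C3, the central component of complement, had 1643, 7712, 9526 and 5300 CPM in the females and 479.5, 1002, 443 and 266 CPM in the males (log2 fold change -3.46 ± 0.610, adjusted p = 0.00118). Female control 1 lay well below the other 3 females. Apoc1, an apolipoprotein of small lipid particles, had 1204 to 1727 CPM in females and 101 to 285 CPM in males (-3.13 ± 0.371). Akr1cl, an aldo-keto reductase related to Akr1c18, had 2124 to 2852 CPM and 613 to 983 CPM (-1.54 ± 0.146). Adh1, an alcohol dehydrogenase, had 3131 to 3883 CPM in females and 1481, 804, 459 and 314 CPM in males (-2.16 ± 0.558). Reads of near-identical relatives could have been split or dropped in counting, and levels within the Akr1c, Gstm and Cyp21 families are uncertain to that extent.

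Promoter windows were examined for 3 published motifs, since sets of genes differed together. RefSeq windows (GRCm38.p6, 250 bases before to 50 after a start) were matched by symbol for 9 of the 12 highest, 10 of the 12 lowest and 14 of the 21 cholesterol genes. The half-site of steroidogenic factor 1, AAGGTCA on either strand, was in 4.69% of 31396 autosomal windows and in 4.29% of 12240 tested autosomal genes with a window. It was in 2 of the 9 highest (Susd3, Fam131c), in 3 of the 10 lowest (Cst8, Cyp2f2, Elfn1) and in 2 of the 14 cholesterol genes. The sterol regulatory element TCACNCCAC, on either strand, was in 1.25% of all windows and 1.49% of the tested genes. It was in 1 of the 14 cholesterol genes, Hmgcs1, and in 1 of the 10 lowest, Spp1. The inverted repeat of androgen and glucocorticoid receptor sites (AGAACA, 3 bases of any kind, TGTTCT) was in 3 of the 31396 windows and in none of the 3 sets. A match is a description of letters, and no factor binding was measured. Each stretch shown holds 1 match. Some stretches with a match that touch no annotated exon are given 5′ to 3′ on the strand of the gene, all on the plus strand, with the match in capitals. The half-site of Hmgcs1, 246 bases before the start, is not shown. The genes stand for both directions of the sex difference and for the cholesterol genes.
Fam131c, chr4:141367942-141368006, higher in males: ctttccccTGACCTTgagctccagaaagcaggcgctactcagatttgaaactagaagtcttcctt
Cyp2f2, chr7:27119705-27119789, lower in males: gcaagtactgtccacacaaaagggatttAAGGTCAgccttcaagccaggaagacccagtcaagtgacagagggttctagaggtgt
Elfn1, chr5:139907783-139907865, lower in males: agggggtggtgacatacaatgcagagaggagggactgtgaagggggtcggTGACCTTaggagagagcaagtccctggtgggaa
Spp1, chr5:104435000-104435108, lower in males: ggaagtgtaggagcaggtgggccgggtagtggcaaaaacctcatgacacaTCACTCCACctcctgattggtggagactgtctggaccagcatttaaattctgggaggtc
Hmgcs1, chr13:119690164-119690272, lower in males: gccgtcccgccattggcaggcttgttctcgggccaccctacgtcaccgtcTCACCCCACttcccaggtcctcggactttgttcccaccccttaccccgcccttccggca

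Of 12 genes of steroid synthesis shared by the cortical zones, 1 was called higher and 2 lower in males (13.4% and 9.78% of all autosomal genes), with a median log2 fold change of -0.05 beside 0.08 over all autosomal genes. The gene lists here and below were chosen with earlier results of these data known. The share over all autosomal genes is therefore a reference and no test of a list. Star, which carries cholesterol into mitochondria, had 9852, 11697, 11067 and 7885 CPM in the females and 16059, 9885, 9239 and 9842 CPM in the males (log2 fold change 0.15 ± 0.209, adjusted p = 0.636). Male control 1 was far above the other males, and the sexes overlapped. Cyp11a1, the enzyme of side-chain cleavage that starts steroid synthesis, had 7130 ± 1219 CPM in females and 7005 ± 1072 in males (SD, n = 4; log2 fold change -0.03). Cyp21a1, the 21-hydroxylase, was lower in each male than in each female, with 6281 to 8458 CPM against 8649 to 13491 CPM, yet its adjusted p was 0.131; with only the 8 control libraries in the fit it was 0.0477. Scarb1, the receptor for uptake of high-density lipoprotein cholesterol, had a log2 fold change of 0.43 ± 0.293 (adjusted p = 0.310). The 2 genes called lower were Nr5a1 and Stard4. Nr5a1, which encodes steroidogenic factor 1, had 836, 836, 904 and 1572 CPM in the females and 565, 426, 479.9 and 459 CPM in the males, a log2 fold change of -1.10 ± 0.224 (adjusted p = 0.00284); with the number range in the model it was not called (-0.94, adjusted p = 0.0815). Stard4, a sterol transfer protein induced when cells lack sterol, had 119 to 170.3 CPM in females and 28.3 to 67.3 CPM in males (-1.79 ± 0.252, adjusted p = 0.000194). The 1 call higher in males, Fdx1 (0.67), the ferredoxin that passes electrons to mitochondrial P450 enzymes, was lost without female control 1, without female control 4 or without male control 2.

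None of the 5 zona fasciculata genes was called in edgeR's quasi-likelihood test or with DESeq2, and none had an unadjusted p under 0.05 in the former; 1 was called with voom and quality weights. Cyp11b1, the 11-beta-hydroxylase of corticosterone synthesis, had 3806 to 5438 CPM in females and 6776, 3364, 3086 and 3181 CPM in males, with male control 1 again apart. Without male control 1, 2 of the 5 genes were called lower in males, and the log2 fold change of Cyp11b1 went from -0.16 to -0.52. Mc2r, the receptor for corticotropin, had a log2 fold change of 0.08 ± 0.263. In the zona glomerulosa list 4 of 10 genes were called higher in males and 0 lower (13.4% and 9.78% of all autosomal genes). The median log2 fold change was 0.36. Without female control 3, 2 were called higher, and with the number range in the model also 2. Those that held in each leave-one-out fit were Shh and Agtr1a; the other two were Agtr1b and Kcnk9. Shh, the hedgehog ligand made by outer cortical cells, had 64.3, 56.9, 68.0 and 90.2 CPM in the males and 33.7, 21.2, 20.2 and 26.0 CPM in the females (1.47 ± 0.253, adjusted p = 0.000939). Agtr1a, an angiotensin II receptor, had 206 to 243 CPM against 163 to 178 CPM (0.37 ± 0.0912, adjusted p = 0.00921). Cyp11b2, the aldosterone synthase that defines the zone, did not pass, at 250.4 ± 116 CPM in males and 231 ± 60.8 CPM in females (adjusted p = 0.858).

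Enzymes that reduce, oxidise or sulfate steroids differed in both directions. Of 11 tested, 4 were called higher and 3 lower in males (13.4% and 9.78% of all autosomal genes), and 4 and 1 of these were called in every leave-one-out fit. With the number range in the model 2 were called in each direction, and Sult1a1 and Hsd11b1 were not (log2 fold changes 0.55 and 0.81, adjusted p = 0.165 and 0.145). The count of those lower was 1 without female control 1, female control 3 or male control 1, 2 or 4; the third of them was Hsd17b4 (-0.22). Besides Srd5a2 and Akr1d1, a large difference was in Sult1e1, the estrogen sulfotransferase, which had 1.85, 2.43, 3.12 and 6.01 CPM in the males and 0.0323 to 0.123 CPM in the females (adjusted p = 9.63e-06). The females held 1 to 4 counts each, at or near the floor of 3 counts, so the difference is given from summed counts: 465 in males and 9 in females, a ratio of 51.7 with a 95% interval of 27 to 114 for counting error. Sult1a1, a phenol sulfotransferase, had 31.9 to 64.8 CPM in males and 19.3 to 33.1 CPM in females (0.94 ± 0.239), with overlap. Hsd11b1, which regenerates active glucocorticoid, had 45.3, 108, 77.2 and 67.6 CPM in the males and 38.2 to 45.8 CPM in the females (0.78 ± 0.209); without female control 1 and male control 2 its adjusted p was 0.0793. Hsd11b2, which inactivates corticosterone and is known from kidney tubules, was called lower in males at an adjusted p of 0.0479, but female control 1, the library with kidney transcripts, held 26.8 CPM against 0.910 to 4.13 CPM in the other females and 0.646 to 2.07 CPM in the males. The log2 fold change without that library was -0.41.

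**Figure D3:**
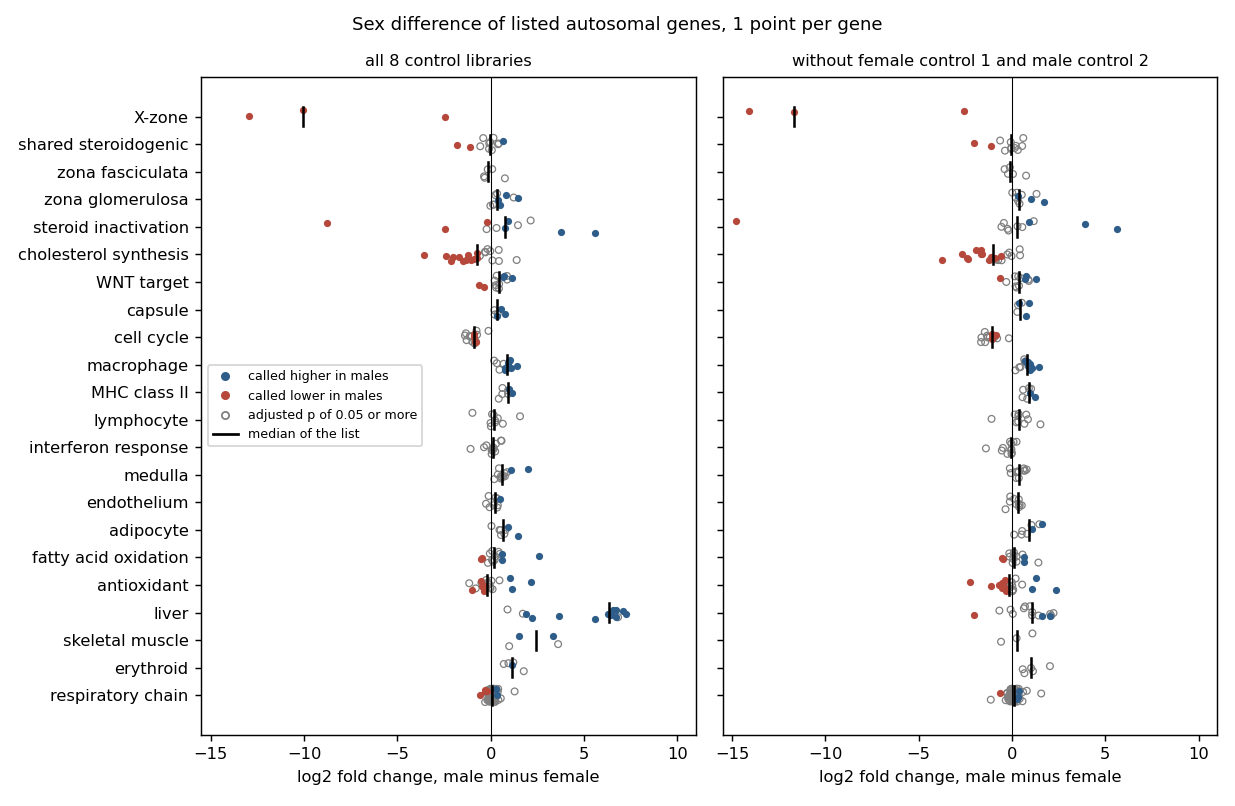
Log2 fold change, male minus female control, of each tested member of 22 gene lists (1 point per gene, filled where the adjusted p is under 0.05; black bars are list medians), with all 8 control libraries on the left and without female control 1 and male control 2 on the right. Cholesterol synthesis lies to the left and macrophage genes to the right in both panels, while the median of the liver list goes from 6.31 to 1.07.

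Genes of cholesterol synthesis were lower in males. Of 21 genes tested, 12 were called lower and 0 higher (9.78% and 13.4% of all autosomal genes), with a median log2 fold change of -0.76 beside 0.08 over all autosomal genes. Without female control 1 and male control 2, 12 of 20 were called lower. With any 1 control library left out there were 10 to 13 calls and a median of -1.12 to -0.63, and 10 genes were called in every such fit. With the number range in the model 4 were called and the median was -0.62. These genes run along the whole pathway. Hmgcs1 (chromosome 13), which makes hydroxymethylglutaryl-CoA at its start, had 344, 405, 421 and 448 CPM in the females and 143, 171, 94.7 and 93.9 CPM in the males, a log2 fold change of -1.69 ± 0.196 (adjusted p = 3.66e-05). Mvd, which forms isopentenyl diphosphate, had 22.1 to 31.5 CPM in females and 10.6 to 20.6 CPM in males (-0.76 ± 0.194).

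Enzymes of the isoprenoid and sterol steps were lower as well. Fdps, farnesyl diphosphate synthase, had 16.8, 25, 28.8 and 30.6 CPM in the females and 3.88, 2.25, 0.464 and 1.98 CPM in the males, with a log2 fold change of -3.56 ± 0.512 (adjusted p = 0.000221). Hsd17b7, a sterol 3-ketoreductase, had 51.8 to 130 CPM in females and 9.87 to 27.8 CPM in males (-2.42 ± 0.329). Idi1, which isomerises isopentenyl diphosphate, had 176, 389.7, 509 and 447 CPM in the females and 171, 81.7, 48.3 and 45.1 CPM in the males (-2.14 ± 0.396). Female control 1 and male control 1 nearly met in Idi1. Cyp51, Tm7sf2 and Sc5d, a demethylase, a reductase and a desaturase of the sterol ring, had log2 fold changes of -1.48, -1.32 and -1.24.

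Of the genes that control the pathway, Insig1 and Srebf2 did not pass the test. Insig1, which retains the sterol sensor in the endoplasmic reticulum, had a log2 fold change of 0.43 ± 0.235 (adjusted p = 0.201), and Srebf2, the transcription factor of the pathway, had 0.09 ± 0.119 (adjusted p = 0.610). Male and female values overlapped in both.

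**Figure D4:**
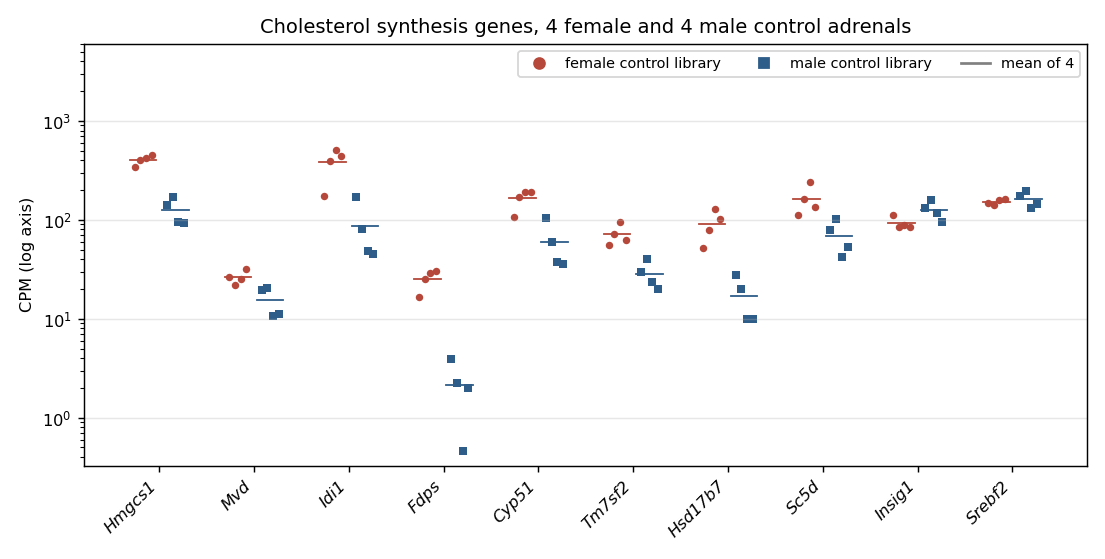
CPM (log axis) of the 10 genes of the cholesterol list named in the text, in pathway order followed by regulators, with 1 point per control library (circles female, squares male) and a line at the mean of 4. Hmgcs1, Fdps and Hsd17b7 lie lower in all 4 males than in all 4 females, while Insig1 and Srebf2 overlap.

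Of 13 targets of WNT signalling, 3 were called higher and 2 lower in males (13.4% and 9.78% of all autosomal genes), and 11 fitted values were above 0, with a median of 0.44. Without female control 4, 5 were called higher, and with the number range in the model 2 were called higher and 0 lower. Axin2, a feedback inhibitor used as a readout of the pathway, had 73.4, 75.1, 77.8 and 93.3 CPM in the males and 45.7, 43.6, 47.5 and 55.6 CPM in the females (0.73 ± 0.108, adjusted p = 0.000248). Tcf7, a transcription factor of the pathway, had 63.5 to 99.8 CPM in males and 30.6 to 41.5 CPM in females (1.14 ± 0.127, adjusted p = 2.5e-05), and Nkd1, another feedback inhibitor, had 76.2 to 96.2 CPM against 41.7 to 67.6 CPM (0.66 ± 0.133). The 2 genes lower in males were Tnfrsf19, a receptor of the TNF family, at -0.61 ± 0.112, and Znrf3, at -0.37 ± 0.0948. Znrf3 encodes a ubiquitin ligase that removes WNT receptors and is held back by R-spondins. Znrf3 had 31.2 to 37.8 CPM in males and 42.4 to 45.4 CPM in females, and its adjusted p was 0.0122 with all libraries and 0.0732 without female control 1 and male control 2. In the capsule list, 3 of 6 genes were called higher in males and 0 lower, with a median of 0.36. Rspo3, the R-spondin that the capsule secretes, had 34.5, 28.0, 30.2 and 32.4 CPM in the males and 24.1, 12.9, 14.7 and 23.2 CPM in the females (0.74 ± 0.191, adjusted p = 0.0127), and Nr2f2, a nuclear receptor of capsular cells, had 90.4 to 112 CPM against 72.5 to 87.0 CPM (0.35 ± 0.0907). With the number range in the model 0 of the 6 capsule genes were called (log2 fold changes 0.57 for Rspo3 and 0.24 for Nr2f2), and Nkd1, Znrf3 and Tnfrsf19 lost their calls, with adjusted p of 0.0683, 0.0851 and 0.0911 at log2 fold changes of 0.67, -0.40 and -0.47.

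Of 16 matrix genes, 4 were called higher and 2 lower in males (13.4% and 9.78% of all autosomal genes). The fitted value was above 0 in 14 of the 16, with a median of 0.63. The count of those higher was 1 without female control 3, 2 without female control 1, female control 2 or male control 3, and 10 without male control 1. Dcn, the small proteoglycan decorin, held in every such fit, at 449, 462, 512 and 354 CPM in the males and 189 to 242 CPM in the females (1.04 ± 0.174, adjusted p = 0.000732). Col1a1, the alpha-1 chain of type I collagen, had 265, 558, 1690 and 816 CPM in the males and 206 to 328 CPM in the females, so male control 1 lay within the female range. The log2 fold change of Col1a1 was 1.56 ± 0.449 (adjusted p = 0.0222). It was not called without female control 1 (adjusted p = 0.0582), female control 3 (0.0609) or male control 3, where the log2 fold change was 0.95. Sparc, a collagen-binding glycoprotein, went the other way, with 5577 to 7581 CPM in females and 2990 to 3930 CPM in males (-0.86 ± 0.125, adjusted p = 0.000226). So did Col6a1, a chain of type VI collagen, with 963 to 1168 CPM and 631 to 788 CPM (-0.55 ± 0.0968). With the number range in the model 2 of the matrix genes were called higher and 1 lower, and Col6a1 was not called.

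Macrophage genes were higher in males. Of 14 tested, 10 were called higher and 0 lower (13.4% and 9.78% of all autosomal genes), with a median log2 fold change of 0.89, and all 14 fitted values were above 0. Without female control 1 alone 6 were called, without female control 1 and male control 2 8, and 9 with the number range in the model. The 6 genes called in every leave-one-out fit were Csf1r, Cd163, C1qa, C1qb, C1qc and Aif1. Cd163, the scavenger receptor for haemoglobin complexes on tissue macrophages, had 15.4, 9.74, 12.4 and 10.6 CPM in the males and 4.23, 5.62, 3.42 and 5.02 CPM in the females (1.4 ± 0.229, adjusted p = 0.000598). C1qa, a chain of complement C1q that macrophages make, had 80.7 to 113 CPM in males and 29.5 to 65.6 CPM in females (0.95 ± 0.238), and C1qb and C1qc had log2 fold changes of 1.01 and 0.98. Csf1r, the receptor for the macrophage growth factor CSF1, had 58.1, 34.1, 48.4 and 53.7 CPM in the males and 15.8, 17.8, 22.8 and 34.5 CPM in the females (1.10 ± 0.271), with the lowest male just below the highest female. Aif1 had 6.12 to 9 CPM against 2.91 to 4.40 CPM (0.98 ± 0.190). The summed level of the list was 469 to 645.5 CPM in males and 266 to 422 CPM in females.

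Other blood and immune cells were examined beside these. Of 7 genes of MHC class II, 2 were called higher in males (13.4% of all autosomal genes), and 0 with the number range in the model, where Cd74 and H2-DMa had log2 fold changes of 1.10 and 0.98 (adjusted p = 0.0713 and 0.0702). Cd74, the invariant chain of the class II molecule, was at 97.4 to 180.5 CPM against 50.7 to 79.1 CPM (1.14 ± 0.260), and H2-DMa was at 6.89 to 13.1 CPM against 4.40 to 6.25 CPM (1.0 ± 0.216). H2-Aa, a chain of the class II molecule itself, was uneven, with 18.6 CPM in male control 1 and 13.8 CPM in female control 3 and 0.0646 to 1.70 CPM in the other 6 libraries. None of 10 lymphocyte genes was called by edgeR's quasi-likelihood test or DESeq2, and none had an unadjusted p under 0.05 in the former. None of 12 interferon-response genes was called by edgeR's quasi-likelihood test, with 1 at an unadjusted p under 0.05; DESeq2 called 1, and without female control 1, 1 was called lower. The erythroid genes summed to 1063 to 2093 CPM in males and 331 to 988 CPM in females, and 1 of 5, the globin gene Hbb-bs (1.14), was called higher in males. No erythroid gene was called without male control 2, female control 3 or female control 4, and 2 were without female control 2. Erythroid and macrophage sums were thus both higher in all 4 males, and the part of the former in the macrophage result was not tested.

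Of 16 cell cycle genes, 4 were called lower in males and 0 higher (9.78% and 13.4% of all autosomal genes), and all 16 fitted values were below 0, with a median of -0.88. The 4 were called in every leave-one-out fit; 6 genes were called without female control 1, and DESeq2 called 8. With the number range in the model 0 were called and the median was -0.19, with -0.21 for Mcm5 and -0.30 for Pcna. The 4 were Mcm3, Mcm5, Mcm6 and Pcna, of which the first 3 are subunits of the replicative helicase and the last the sliding clamp of DNA polymerase. Pcna had 66.6, 108, 107 and 100 CPM in the females and 44.1, 58.5, 54.7 and 50.7 CPM in the males (-0.87 ± 0.201, adjusted p = 0.00655). Mcm6 had 54.0 to 84.7 CPM against 32.7 to 46.7 CPM (-0.85 ± 0.196), and Mcm3 37.2 to 48.1 CPM against 18.8 to 32.3 CPM (-0.78 ± 0.167). The other 12 genes of the list did not pass edgeR's quasi-likelihood test. Mki67, the proliferation marker, had 26.7, 33.7, 30.8 and 36.4 CPM in the females and 2.98, 17.2, 34.7 and 20.3 CPM in the males, with a log2 fold change of -0.76 ± 0.538 (adjusted p = 0.324). Male control 1 was lowest in Mki67, and male control 3 lay within the female range.

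The medulla list had a median log2 fold change of 0.63, with 2 of 12 genes called higher and 0 lower (13.4% and 9.78% of all autosomal genes). Both were genes of neuroendocrine cells at their highest in male control 2. Ddc, the decarboxylase of catecholamine synthesis, had 98.2, 326, 142 and 129.9 CPM in the males and 57.7 to 113 CPM in the females, and Syt1, a calcium sensor of secretion, had 39.4, 286, 58.2 and 41.0 CPM in the males and 17.2 to 40.4 CPM in the females. Their log2 fold changes of 1.11 and 1.99 became 0.63 and 0.78 without female control 1 and male control 2, with adjusted p of 0.150 and 0.198. No medulla gene was called in that fit, nor without female control 1, female control 3, female control 4 or male control 2 alone, and 5 were called without female control 2. The summed level of the list was 9317 to 13737 CPM in males and 5628 to 12735 CPM in females, so the glands differed in their share of medulla transcripts within each sex. Of 10 endothelial genes 1, Esam (0.51), was called higher; without male control 1, 4 were called, and without any 1 of the other 7 control libraries 0.

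Adipocyte transcripts were present in all 8 libraries, with sums of 2353 to 4685 CPM in males and 1838 to 2338 CPM in females. Of 8 genes, 2 were called higher in males (13.4% of all autosomal genes). Adipoq, the fat hormone adiponectin, had 205, 249.5, 360.4 and 224 CPM in the males and 183, 105, 109 and 158 CPM in the females (0.90 ± 0.286, adjusted p = 0.0344). Cidec, a protein of lipid droplets, had 147 to 289 CPM against 61.6 to 96.6 CPM (1.44 ± 0.393, adjusted p = 0.0178). Neither call held in every leave-one-out fit: 0 genes were called without female control 2, without female control 3 or without male control 3, 1 without female control 4 or male control 2, and 4 without male control 1. With the number range in the model 0 genes of the list were called, and the median log2 fold change was 0.61. 

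Of 22 tested entries of the list of genes that protect against oxidants, 3 were called higher and 6 lower in males, beside 13.4% and 9.78% of all autosomal genes. Without female control 1 and male control 2, 9 were lower; with the number range in the model 2 were higher and 1 lower, and Gstm1, Gsr, Prdx1 and Prdx3 were not called, at log2 fold changes of 0.82, -0.27, -0.30 and -0.30. The 3 higher were Gstm1, Gstm2 and Hmox1. Gstm1 and Gstm2, glutathione transferases, had 287 to 454 and 196 to 337 CPM in males against 157 to 212 and 91.4 to 124 CPM in females, with log2 fold changes of 1.01 and 1.16. Hmox1, haem oxygenase, had 118, 41.2, 96.4 and 117 CPM in the males and 18.9 to 24.8 CPM in the females (2.16 ± 0.368, adjusted p = 0.000888). Erythroid and macrophage sums were also higher in all 4 males, as given above, and their part in Hmox1 was not tested. On the lower side, Prdx6, a peroxiredoxin that repairs oxidised phospholipids, had 143 to 190.2 CPM in males and 303 to 394 CPM in females (-1.0 ± 0.143, adjusted p = 0.000193). Prdx3, the mitochondrial peroxiredoxin, Prdx1 and Gsr, glutathione reductase, had smaller log2 fold changes of -0.53, -0.36 and -0.41.

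Of 78 respiratory chain genes 2 were called higher and 5 lower in males, beside 13.4% and 9.78% of all autosomal genes, with a median of 0.05, and 1 of these 7, Atp5g3 (-0.60), a subunit of ATP synthase, held in every leave-one-out fit. There were 8 higher and 2 lower without female control 1. In fatty acid oxidation, 3 of 14 were called higher and 2 lower; without female control 3, 1 was called higher. With the number range in the model 0 genes of either list were called. The 2 lower were both carnitine palmitoyltransferases, which bring fatty acids into mitochondria: Cpt1a had 405 to 454 CPM in males and 541 to 618 CPM in females (-0.47 ± 0.107), and Cpt2 101 to 130.4 CPM against 137 to 185 CPM (-0.53 ± 0.128). Their log2 fold changes with the number range were -0.28 and -0.21. Acadvl, the first dehydrogenase for very long chains, was higher, at 161, 248, 296 and 256 CPM in the males and 144 to 173 CPM in the females (0.59 ± 0.154, and 0.69 with the number range).

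Of 7 genes that respond to glucocorticoid, 2 were called higher in males (13.4% of all autosomal genes), 1 in every leave-one-out fit and 0 with the number range in the model (log2 fold change of Fkbp5 1.45, adjusted p = 0.0683). The gene called in every leave-one-out fit was Fkbp5, a chaperone partner of the glucocorticoid receptor, at 213, 136, 198 and 252 CPM in the males and 70.3, 85.4, 67.5 and 53.0 CPM in the females (1.53 ± 0.306, adjusted p = 0.00274). Of 9 immediate early genes, which answer to stress and handling within a short time, Jun alone was called by edgeR's quasi-likelihood test, while DESeq2 called 2; Jun stood at 415, 199, 286 and 316 CPM in the males and 99.5 to 162 CPM in the females (1.23 ± 0.250, adjusted p = 0.00299). The median of those 9 genes was -0.32, and without female control 4 another of them was called lower in males.

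The calls that did not hold without female control 1 and male control 2 were largest for liver and kidney genes. The 5 of largest fold change higher in males were Ambp, Cyp3a11, Plg, Cps1 and Ces1c, with log2 fold changes of 7.26, 7.13, 7.09, 7.08 and 7.07. All 5 are known from liver, and all had 158 to 257 CPM in male control 2 and 2.06 CPM or less in every other control library. Without male control 2 their log2 fold changes were between -0.52 and 1.04. The 5 lower in males were Calb1, Lrp2, Kl, Ggt1 and Slc22a12, genes of kidney tubules. They had 31.9 to 133 CPM in female control 1 and 4.89 to 21.1 CPM in female control 3, and 0.680 CPM or less in the other 6 libraries. Their log2 fold changes of -6.62, -6.28, -6.10, -5.87 and -5.45 became -4.56, -3.35, -3.58, -4.32 and -3.47 without female control 1 and male control 2, with female control 3 still in the fit. In the liver list 12 of 15 genes were called higher in males (13.4% of all autosomal genes) with all libraries and 2 without those 2 libraries or without male control 2 alone, where 1 was also called lower; 6 were called without female control 1, and 2 without female control 2, 3 or 4. The 2 that held in every leave-one-out fit were Cyp2e1, described above, and Hp, the haemoglobin-binding haptoglobin, which had 262, 493, 179 and 178 CPM in the males and 56.4 to 93.9 CPM in the females (1.89 ± 0.350, adjusted p = 0.00163).

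**Figure D5:**
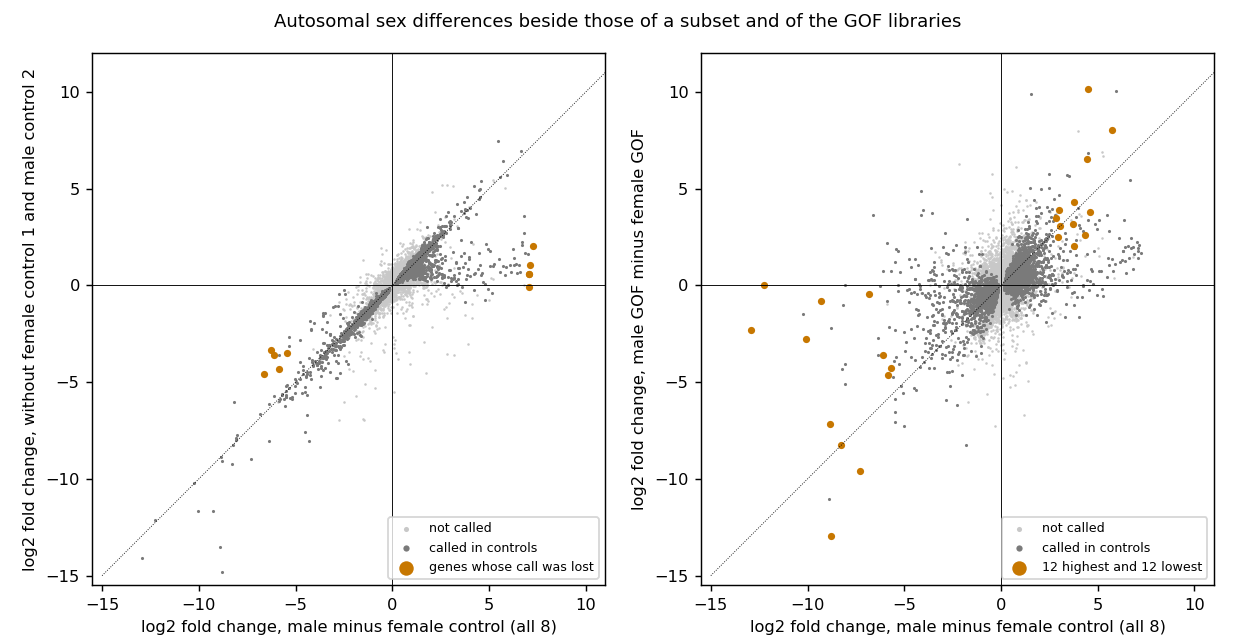
Log2 fold change between the sexes in controls (x axis, all 8 libraries) against the same without female control 1 and male control 2 (left) and against the sex difference in the 8 GOF libraries (right), 1 point per autosomal gene, dark where called in controls; orange marks the 10 liver and kidney genes whose call was lost (left) and the 12 highest and 12 lowest genes (right); the dotted line marks equal values. On the left, liver genes such as Cps1 go from 7.08 to -0.08; on the right, the 12 highest genes stay above 0, and Spp1 goes from -6.83 to -0.45.

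The GOF mice gave a second view of these genes in other animals, with a changed genotype. The 2 contrasts share no libraries, but they come from the same fit with a shared estimate of the spread. In the GOF mice too, sex and title number range are largely confounded, and only the first range holds both sexes. Between GOF males and females 5189 of 17609 autosomal genes (29.5%) were called. Of the 2359 genes higher in control males, 1996 had the same sign in GOF, 1054 were called there in the same direction and 30 in the opposite one. Of the 1723 lower in control males, 1522 had the same sign, 973 were called in the same direction and 32 in the opposite one. Across the 17609 genes, which are not independent replicates, the log2 fold changes of the 2 contrasts had a Pearson correlation of 0.497 and a Spearman correlation of 0.519.

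All 12 genes highest in control males were also called higher in GOF males, and apart from Drd4 their log2 fold changes ran from 2.04 for Srd5a2 to 8.06 for Susd3. Drd4 reached 73.5 ± 39.2 CPM in GOF males, while the GOF females held 2 to 3 counts each, at or under the floor of 3. Its summed counts were 10979 in GOF males and 9 in GOF females, a ratio of 1285 with a 95% interval of 677 to 2811 for counting error. St3gal5, Glul, Acsbg1 and Prss35 had log2 fold changes in GOF of 1.42, 1.56, 1.55 and 2.31, beside 1.5, 1.47, 1.72 and 2.70 in controls. Cyp2e1 was not called in GOF, at 23.9 CPM in females and 17.1 CPM in males (-0.48, adjusted p = 0.508), and its interaction had an adjusted p of 0.0487. The genes lowest in control males divided. Akr1d1, Cyp2f2, Elfn1, Cst8, Lactbl1, Hephl1 and Folr1 were called lower in GOF males too, with Akr1d1 at 1175 ± 253 CPM in GOF females and 0.147 ± 0.211 CPM in GOF males. Akr1c18, Pik3c2g, Spp1, Gpc5 and Gm7298 were not called there, and both GOF sexes were low. Akr1c18 had 0.283 ± 0.168 CPM in GOF females and 0.0539 ± 0.0185 CPM in GOF males, beside 5412 CPM in control females. Spp1 had 3.80 ± 3.27 and 2.75 ± 2.15 CPM in the GOF sexes, beside 287 CPM in control females, and Gm7298 was at 0 CPM in both GOF sexes. Thrb, the third X-zone gene, had a log2 fold change in GOF of -1.37 (adjusted p = 7.68e-05) beside -2.46 in controls.

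The interaction of sex and genotype, which tests whether the 2 sex differences are unequal, was called for 731 of 17609 autosomal genes (4.15%), among them 158 of the genes higher and 215 of those lower in control males. In GOF, 10 of 14 macrophage genes were called higher in males and 0 lower, and all 14 fitted values were above 0, with a median of 1.01; 13.2% of all autosomal genes were called higher and 16.2% lower. Cd163, C1qa and Csf1r had 1.22, 1.17 and 1.08. All 16 cell cycle genes were called lower in GOF males, with a median of -2.32, and Mcm3 and Pcna had -1.62 and -1.48. The interaction was called for 0 of the macrophage and 1 of the cell cycle genes. In the cholesterol list 6 of 21 genes were called lower in GOF males and 0 higher, with a median of -0.25 beside -0.76 in controls. Hmgcs1 and Hsd17b7 had -1.26 and -1.72 in GOF, while Fdps had -0.95 (adjusted p = 0.159) and Tm7sf2 0.23 (adjusted p = 0.396). The interaction passed for Fdps and Tm7sf2, with adjusted p of 0.0434 and 0.00609, and did not pass for the other two. Axin2 and Tcf7 had 1.04 and 0.54 in GOF, Shh 1.94 and Rspo3 0.75, all called higher in GOF males. Adipoq and Cidec had the opposite sign, with -1.02 and -1.11 in GOF (adjusted p = 0.0176 and 0.0518), and their interactions had adjusted p of 0.0191 and 0.0230.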

How the data were processed

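RNA of whole adrenal glands was sequenced as 150 bp paired-end reads, per the labels' protocols. The submitters' processing notes name Bowtie2 2.2.3, TopHat2 2.0.12, HTSeq 0.6.1 and DESeq 1.18.0; the genome build and the strand setting of counting are not given in the sources used here. The authors deposited raw read counts per gene and FPKM values. Gene positions come from GENCODE M21 (GRCm38), which held 54809 of 54838 gene IDs. Counts were tested with edgeR 4.0.16 (TMM factors, filterByExpr, robust quasi-likelihood fit of 16 libraries with 1 mean per group) in R 4.3.3. P-values were Benjamini-Hochberg adjusted over 18214 genes, with a threshold of 0.05. Each SE of a log2 fold change was derived from the quasi-likelihood F statistic, as the absolute log2 fold change over the square root of F. It is approximate, above all where a sex had almost no counts. The FPKM values, deposited by the authors, entered only limma 3.58.1 alternatives on log2(FPKM + 1) or log2(FPKM + 0.1); DESeq2 1.42.0 was another. Figures used matplotlib 3.10.9 and exact tests scipy 1.17.1. Named genes were autosomal, protein-coding, called with and without female control 1 and male control 2, without overlap between the sexes and averaging 5 CPM or more in 1 sex: the 12 highest, the 12 lowest, the 6 most abundant per direction among those with an absolute log2 fold change of at least 1, and, of calls lost without those libraries, 5 per direction. Members and gene lists were chosen with earlier results of these data known. Each library is 1 mouse. On data simulated for this comparison over 18214 genes, 71% of 2-fold and 100% of 4-fold changes were recovered, and 5% of calls were unchanged genes. In the simulation 200 genes were changed, the spread was the same for every gene, and no library carried transcripts of another tissue. These shares are thus not the power or error rate of the calls above. No pair of libraries of 1 group agreed within sampling noise (lowest chi-square per degree of freedom 30.2 over 12 pairs). A few genes are not reported here.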

Additional observations from a re-analysis of the deposited data

Results flagged for a closer look

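In 35 of 274 groups of 4 control libraries examined, 1 library lay apart from the other 3 of its sex by Dixon's criterion. The nominal rate of the criterion is about 1 in 20 groups. That rate cannot be set against the 35, because some genes were chosen for calls that rested on female control 1 and male control 2. The groups are not independent either. Male control 2 stood apart for the summed level of liver genes (10730 CPM, the next male at 1049), skeletal muscle genes (71.7 CPM) and kidney tubule genes (3.75 CPM). It also did so for Ambp (257 CPM), Cyp3a11 (234), Plg (195), Cps1 (188), Ces1c (158), Serpina6 (27.3), Akr1d1 (17.2), Cyp2f2 (16.7), Syt1 (286), Ggt1 (0.380) and Gpc5 (0.0585). Female control 1 stood apart for kidney tubule genes (1235 CPM, the next female at 211). Among single genes it did so for Lrp2 (133 CPM), Calb1 (126), Kl (116), Ggt1 (31.9), Hsd11b2 (26.8), Glul (839), Insig1 (113), Mcm3 (37.2) and Susd3 (4.77).

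Male control 1 stood apart for the shared steroidogenic genes (52944 CPM, the next male at 36791), the zona fasciculata genes (14364 CPM), Star (16059), Cyp11b1 (6776), Prdx3 (583.7) and H2-Aa (18.6). The remaining cases were Rubcnl in female control 2 (0.484 CPM), Tent5b (2.31) and H2-Aa (13.8) in female control 3, Nr5a1 in female control 4 (1572) and Aif1 in male control 3 (9).

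The sex difference was unequal in controls and GOF, by the interaction term of edgeR's quasi-likelihood test, in 17 of 111 genes examined, beside 4.15% of all autosomal genes; many of the 111 were chosen for their sex difference in controls. The difference of log2 fold changes, GOF minus control, was 10.63 for Akr1c18 (adjusted p = 0.0292), 6.37 for Spp1 (0.000807), 2.52 for Folr1 (0.0342), 1.88 for Apoc1 (0.0438) and 1.09 for Thrb (0.0263), all lower in control males. Gpc5, also lower in control males, was fitted at 8.45 (0.00336), but control males held 2 counts in all, so the size is not measured. For Akr1c18 the GOF males held at most 3 counts per library, and its size is uncertain likewise. The difference was 2.61 for Fdps (0.0434), 1.56 for Tm7sf2 (0.00609) and 1.45 for Stard4 (0.0319), genes of sterol synthesis and transfer. Among genes higher in control males it was 2.35 for Susd3 (0.0355), where GOF had the larger difference. Drd4 was fitted at 5.65 (0.00994), but GOF females held at most 3 counts per library, so this size is not measured either. It was -1.71 for Srd5a2 (0.00887), -2.70 for Cyp2e1 (0.0487), -1.92 for Adipoq (0.0191) and -2.55 for Cidec (0.0230). It was 0.97 for Col6a1 (0.00168), whose log2 fold change was -0.55 in controls and 0.41 in GOF, and -0.60 for Tnfrsf19 (0.0433).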

How the results depend on the processing

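The 4082 calls (2359 higher and 1723 lower in males) changed with several choices. DESeq2 called 4869 and voom with quality weights 5211. With the range of title numbers in the model 1243 genes were called, 596 higher and 647 lower. Without female control 1 and male control 2, 1538 were higher, and with no filter on low counts 1384 were. With an absolute log2 fold change of at least 1 the count was 1346, of which 797 were higher, since fewer genes can qualify. Leaving out 1 library at a time gave 2533 (without female control 3) to 4681 (without male control 1) calls, 1316 to 2854 higher and 1217 to 1827 lower. The share of calls higher in males was 57.8%, and it was 46.5% with only the 8 control libraries, 47.5% with no filter, 47.9% with the number range, 49.5% with at least 10 counts in every library and 49.9% with upper-quartile factors; the causes were not tested. The median log2 fold change of all genes tested stayed between 0.00 and 0.10 under these settings. Cyp3a11, Plg, Cps1 and Ces1c changed sign without male control 2, the library with liver transcripts: leaving out 1 library gave -0.52 to 8.74, -0.16 to 7.87, -0.38 to 7.73 and -0.18 to 7.88. Cps1 was -0.08 without female control 1 and male control 2. No paired analysis was possible because the labels give these mice no replicate numbers that link the sexes. With 4 libraries per sex, a 2-fold change can be missed, and genes at 0 counts in a sex have only a bound.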
